A study of Mus musculus with 6 samples.

Results

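Glycolysis is the pathway that splits glucose into pyruvate in the cytosol and yields ATP and NADH. Hexokinase traps glucose in the cell, phosphofructokinase commits the sugar to the pathway, and triosephosphate isomerase, glyceraldehyde-3-phosphate dehydrogenase, phosphoglycerate kinase, enolase and pyruvate kinase carry out steps of the lower pathway. Lactate dehydrogenase converts pyruvate to lactate and back. Brain tissue depends on glucose, and neurons and astrocytes use different isoenzymes for several of these steps. Glycolytic genes are also known for processed pseudogenes, which are copies of spliced mRNA inserted elsewhere in the genome, and Gapdh is a textbook case.

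The 10 genes described here are Hk1, Pfkm, Tpi1, Gapdh, Pgk1, Eno1, Eno2, Pkm, Ldha and Ldhb. They were given as a list of symbols, and all 10 were found among the 21006 genes with a value. mRNA was measured in the prefrontal cortex of male C57BL/6 mice that were 18 months old by their age label, although the sample titles carry the code 17M. The PND group (postoperative neurocognitive disorder, 3 samples) inhaled 1.5% isoflurane and had an exploratory laparotomy, which is an opening and inspection of the abdomen, of 30 min. The CON group (3 samples) had neither. Each group had 13 mice, of which 3 were taken for sequencing, and effects of anesthesia and of operation cannot be told apart. The cortex was taken after a maze test in both groups. The values were FPKM, that is fragments scaled by exon length and by the number of mapped reads. They are levels per length. A ranking of genes by them depends on the exon lengths used to make them, which were not known here. The samples were bulk tissue. Fewer cells of a type and less RNA per cell therefore cannot be told apart.

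The sequence of Gapdh shows the difficulty of assigning its reads. A stretch of 90 coding bases is printed here, because it lies in a part of the coding sequence that many copies share. It covers coding bases 601 to 690 and lies in a single exon at chr6:125162538-125162627 on the minus strand of GRCm38 (GENCODE M21). The first copy, Gm7336, is identical to Gapdh in these bases and had no FPKM value in the files. The other 4 copies had values. The copies lie at chr7:51746647-51747878 (Gm7336, plus strand), chr11:4561780-4564637 (Gm11960, plus), chr1:180326970-180330550 (Gm5069, minus), chr9:109827943-109832706 (3000002C10Rik, minus) and chr14:48227201-48228206 (Gm6498, plus). Capitals mark bases that differ from Gapdh, and each sequence is written in the sense of Gapdh.
Gapdh: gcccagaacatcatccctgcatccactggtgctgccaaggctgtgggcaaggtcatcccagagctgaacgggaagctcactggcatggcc
Gm7336: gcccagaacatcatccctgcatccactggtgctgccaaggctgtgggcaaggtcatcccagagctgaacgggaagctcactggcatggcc
Gm11960: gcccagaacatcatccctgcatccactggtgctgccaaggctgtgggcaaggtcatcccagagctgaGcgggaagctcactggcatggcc
Gm5069: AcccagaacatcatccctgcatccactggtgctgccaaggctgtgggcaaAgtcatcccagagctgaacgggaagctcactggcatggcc
3000002C10Rik: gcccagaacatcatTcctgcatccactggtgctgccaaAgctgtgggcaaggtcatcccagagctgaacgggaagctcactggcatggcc
Gm6498: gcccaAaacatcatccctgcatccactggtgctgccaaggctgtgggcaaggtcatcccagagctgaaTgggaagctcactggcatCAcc

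Gm11960 had 1 different base in this stretch, Gm5069 and 3000002C10Rik had 2 each, and Gm6498 had 4. In all, 33 annotated copies were identical to Gapdh over these 90 bases, and none of the 33 had a value in the files. A read that lies wholly in this stretch carries no base that tells Gapdh from those copies.

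No glycolytic enzyme mRNA passed the test between PND and CON. None of the 10 reached the cut-off of an absolute log2 fold change above 1 with an unadjusted p below 0.05, which 1.33% of the 18185 tested genes reached. None had an unadjusted p below 0.05, against 3.13% of all tested genes, and the adjusted p in limma was 0.9999 for each. An adjusted p below 0.05 was given to 0.011% of all tested genes, which was 2 genes. The groups overlapped for all 10 enzymes, whereas 7.66% of all tested genes had groups that did not overlap. The spread between samples was wide for several enzymes, and CON replicate 1 was the lowest sample for 9 of the 10. Fold changes below are differences of log2(FPKM + 0.1), PND minus CON.

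Hexokinase 1, encoded by Hk1 (chr10:62268855-62379908, minus strand), is the main hexokinase of brain. Its level was 27.9, 23.2 and 28.97 FPKM in PND replicates 1 to 3 and 20.98, 31.5 and 24.3 FPKM in CON replicates 1 to 3. CON held both the lowest and the highest sample. The log2 fold change was 0.08 (95% interval -0.33 to 0.48, unadjusted p = 0.673).

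Pfkm (chr15:98092589-98132451, plus strand) encodes the muscle-type subunit of phosphofructokinase, which is also made in brain. PND samples had 63.6, 44.0 and 64.8 FPKM, and CON samples had 39.2, 74.2 and 53.8 FPKM. Again the PND range lay inside the CON range. PND minus CON gave 0.07 on the log2 scale (95% interval -0.52 to 0.66, unadjusted p = 0.786).

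Tpi1 (chr6:124810586-124814296, minus strand) encodes triosephosphate isomerase, which interconverts the triose phosphates. Its level was 35.6, 25.0 and 32.7 FPKM in PND and 18.8, 47.3 and 29.02 FPKM in CON. CON replicate 2 was more than any PND sample, and CON replicate 1 was less. The difference was 0.06 on the log2 scale (95% interval -0.69 to 0.80, unadjusted p = 0.864). The mean FPKM ran the other way, with 31.1 in PND and 31.7 in CON.

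Gapdh (chr6:125161715-125166467, minus strand) encodes the dehydrogenase that produces the NADH of glycolysis, and it often serves as a reference gene. PND samples had 5.07, 3.23 and 6.85 FPKM, and CON samples had 2.68, 5.19 and 3.74 FPKM. The group means were 5.05 ± 1.81 (SD, n = 3) and 3.87 ± 1.26 FPKM (SD, n = 3). PND replicate 3 was the highest sample, but PND replicate 2 lay below CON replicates 2 and 3. The log2 fold change was 0.36 (SE 0.33, 95% interval -0.41 to 1.13, unadjusted p = 0.308), the smallest p of the 10. The interval includes no change as well as a rise beyond the cut-off.

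Pgk1 (chrX:106187100-106203699, plus strand) encodes phosphoglycerate kinase, the first ATP-producing enzyme of the pathway. Its level was 39.2, 33.7 and 42.3 FPKM in PND and 38.7, 41.8 and 31.5 FPKM in CON. It was the steadiest member, with a highest-to-lowest ratio of 1.34, and the only one with CON replicate 3 as its lowest sample. On the log2 scale the fold change was 0.04 (95% interval -0.29 to 0.38, unadjusted p = 0.771).

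The enolases varied most. Eno1 (chr4:150236721-150248879, plus strand) encodes the enolase found in most cells. Its level was 8.17, 4.47 and 9.32 FPKM in PND and 2.85, 10.3 and 5.91 FPKM in CON, a 3.61-fold range over the 6 samples that CON alone spanned. The log2 fold change was 0.32 (95% interval -0.78 to 1.42, unadjusted p = 0.520).
Eno2 (chr6:124760053-124769673, minus strand) encodes the neuron-specific enolase. PND samples lay close together at 15.2, 14.1 and 16.8 FPKM. CON samples had 4.47, 20.4 and 17.7 FPKM, so 1 CON sample was far below and the other 2 were above all PND samples. Its log2 fold change was 0.38 (95% interval -0.84 to 1.60, unadjusted p = 0.491), and it was -0.31 without CON replicate 1.

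Pkm (chr9:59656368-59679375, plus strand) encodes pyruvate kinase M and had the highest level of the 10. It was measured at 149, 109.6 and 175 FPKM in PND and at 93.6, 170.3 and 122 FPKM in CON. PND replicate 3 was the highest sample and CON replicate 1 the lowest, with the other samples of both groups mixed between them. For Pkm the log2 fold change was 0.18 (95% interval -0.40 to 0.76, unadjusted p = 0.484).

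The lactate dehydrogenase subunits are encoded by Ldha, whose product is common in tissues that make lactate, and by Ldhb, whose product is common in oxidative tissue. Ldha (chr7:46841475-46855627, plus strand) had 11.8, 8.46 and 14.97 FPKM in PND and 6.22, 16.0 and 11.7 FPKM in CON. The PND range lay inside the CON range, and the log2 fold change was 0.12 (95% interval -0.71 to 0.95, unadjusted p = 0.744).
Ldhb (chr6:142490249-142507957, minus strand) had 83.6, 70.8 and 86.0 FPKM in PND and 55.5, 90.5 and 92.8 FPKM in CON. CON replicates 2 and 3 were above all PND samples and CON replicate 1 was below. For Ldhb the log2 fold change was 0.04 (95% interval -0.44 to 0.52, unadjusted p = 0.845).

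**Figure D1:**
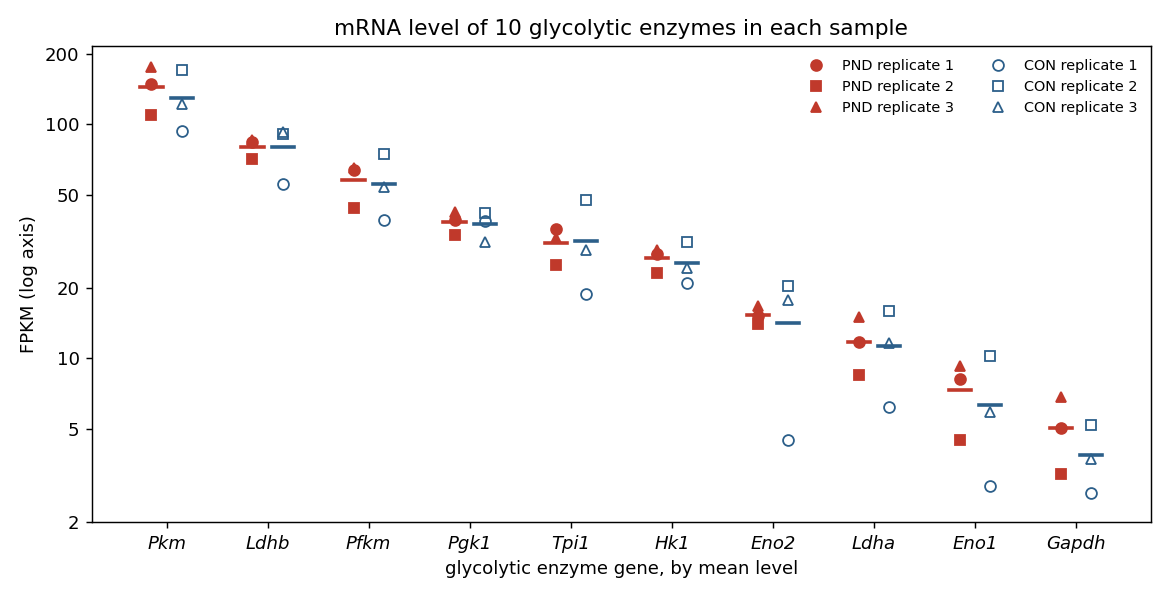
FPKM of each enzyme mRNA (log axis) in every PND sample (filled red) and CON sample (open blue), with horizontal lines at the group means of 3 samples and genes ordered by their mean over all samples. PND and CON overlap for every gene, and CON replicate 1 (open circle) is the lowest point for 9 of 10 genes.

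By mean level the order was Pkm (136.6 FPKM), Ldhb (79.8), Pfkm (56.6), Pgk1 (37.9), Tpi1 (31.4), Hk1 (26.2), Eno2 (14.8), Ldha (11.5), Eno1 (6.83) and Gapdh (4.46). The lowest sample of Pkm was above the highest of Ldhb, and the lowest of Hk1 was above the highest of Eno2. For the other neighbours in this order the ranges over the 6 samples overlapped, although each was above the next in at least 5 of 6 samples. Eno1 exceeded Gapdh in FPKM in all 6 samples. This order depends on the exon lengths used. All annotated exons together span 4133 bases in Gapdh and 5379 in Eno1. Their main transcripts have 1272 and 2027 bases. Gapdh stood at the 63.7th percentile of the tested genes and Pkm at the 99.6th.

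All 10 log2 fold changes were above 0, with a median of 0.10, beside 52.4% of all tested genes and a median of 0.01 for them. This shared sign did not hold when single libraries were left out. Without PND replicate 1, PND replicate 3 or CON replicate 3, 8, 6 and 9 of the 10 were above 0, and without PND replicate 2 or CON replicate 2 all 10 were. With CON replicate 1 left out, 2 of the 10 fold changes were above 0, those of Gapdh (0.13) and Pgk1 (0.07), and the others ranged from -0.31 for Eno2 to -0.02 for Pkm. None had an unadjusted p below 0.05 in that fit, where the smallest was 0.057, for Eno2.

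**Figure D2:**
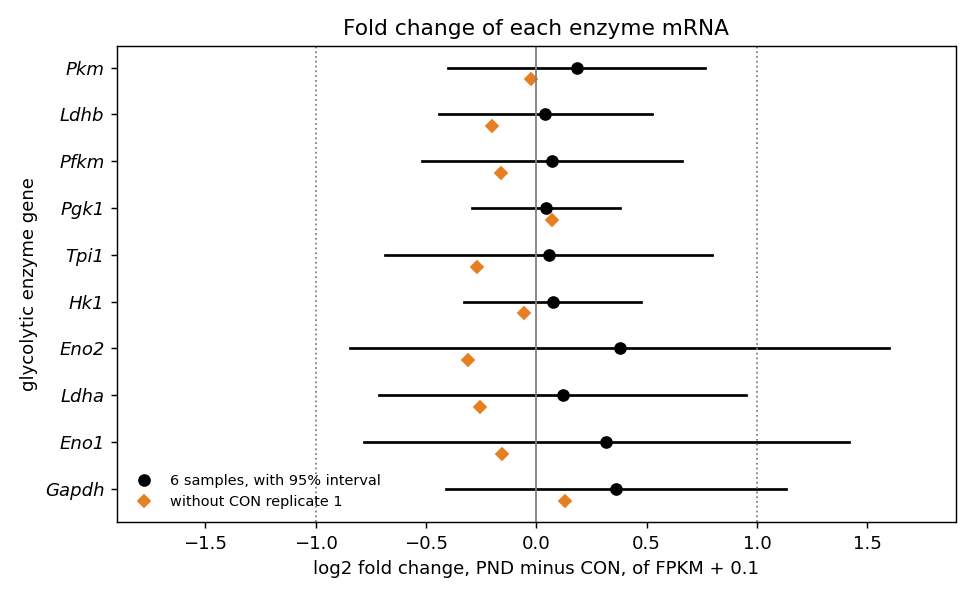
Log2 fold change of each enzyme mRNA (PND minus CON, of FPKM + 0.1) from all 6 samples (black points, lines are 95% intervals) and without CON replicate 1 (orange diamonds). Dotted lines mark the cut-off of 1, every interval includes 0, and 8 diamonds lie below 0.

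Most of the enzymes moved in a similar order over the samples, across both groups, and Pgk1 was the exception. Of the 45 pairs of enzymes, 28 had a Pearson's r of log2 values above 0.8 over the 6 samples, with a range from -0.03 to 0.98. The median r with the other enzymes was 0.90 for Gapdh and 0.47 for Pgk1. These are descriptions of values that share libraries. The median deviation of the 10 from their own 6-sample means was 0.17, -0.27 and 0.28 log2 units in PND replicates 1 to 3. It was -0.58, 0.39 and -0.07 in CON replicates 1 to 3. CON replicate 2 was the highest sample for 6 enzymes, PND replicate 3 for 3 and CON replicate 3 for 1. PND replicate 1, PND replicate 3 and CON replicate 2 were above the 6-sample mean for all 10 enzymes. PND replicate 2 and CON replicate 1 were above it for only 1 each, which in CON replicate 1 was Pgk1.

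Base composition moved with this order. The GC content of the members' longest transcripts ran from 49.7% for Pgk1 to 57.7% for Pkm, above the median of 47.7% of the 12323 genes that averaged 1 FPKM or more. The 4005 of those genes inside this GC range deviated by a median of 0.08, -0.15 and 0.18 in PND and of -0.24, 0.23 and -0.02 in CON. They had the same order of samples as the enzymes, with smaller deviations. In the decile with the highest GC content, where only some of the members lie, the medians were 0.11, -0.30 and 0.37 in PND and -0.56, 0.49 and -0.03 in CON. After a correction of every sample for GC content, the enzyme medians were 0.08, -0.09 and 0.09 in PND and -0.34, 0.12 and -0.03 in CON. The median within-group SD of the 10 fell from 0.45 to 0.25 log2 units, and each of the 10 became smaller. Over the 12323 genes it became smaller in 8220, and their median fell from 0.24 to 0.20. Pkm had the narrowest SD afterwards, 0.04 from 0.39. Eno2 kept the widest SD, 0.65. After the correction 9 of 10 fold changes were still above 0, none had an unadjusted p below 0.05, and that of Ldhb was -0.002. The origin of the GC difference between libraries was not tested.

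**Figure D3:**
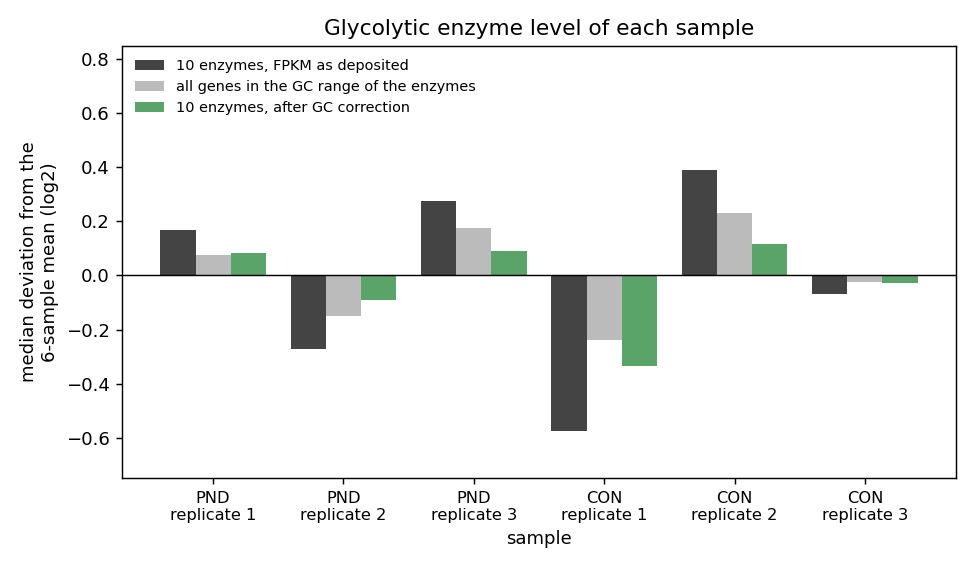
Median log2 deviation from the 6-sample mean in each sample, for the 10 enzymes (dark bars), for the 4005 genes in the GC range of the enzymes (grey bars) and for the enzymes after GC correction (green bars). Bars are medians over genes and carry no error. Dark and grey bars follow the same order, from -0.58 and -0.24 in CON replicate 1 to 0.39 and 0.23 in CON replicate 2, and the grey bars are smaller.

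Ratios of isoenzymes within a sample depend little on how that sample was scaled, and they were taken on FPKM + 0.1. The exon lengths used and sequence shared with other genes still enter them. The ratio of Ldha to Ldhb was 0.142, 0.121 and 0.175 in PND and 0.114, 0.177 and 0.127 in CON. The Ldhb transcript was thus the more abundant one in every sample, and the groups overlapped (exact two-sided permutation test, p = 0.8). Eno1 to Eno2 was 0.542, 0.323 and 0.558 in PND and 0.646, 0.508 and 0.337 in CON (exact permutation p = 0.9). In FPKM the neuronal enolase was above Eno1 in each sample. Of the 100-base windows of the main transcript, however, Eno1 shares 59.0% with genes at other loci and Eno2 none. Hk1 exceeded Hk2, the insulin-responsive hexokinase, by 23.6 to 32.4 fold (exact permutation p = 0.8). Pfkm exceeded Pfkp, the platelet-type subunit, by 1.54 to 2.60 fold (exact permutation p = 0.9). The log2 ratio of Gapdh to the mean of the other 9 was -2.65 ± 0.27 in PND and -2.87 ± 0.11 in CON (SD, n = 3 each, exact permutation p = 0.3). With 3 samples against 3 this test cannot go below 0.1, and adjusted over the 5 ratios each p was 0.9.

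Sequence shared with other genes was concentrated in 3 members. Of the 100-base windows of the main Gapdh transcript, 85.8% were found unchanged in an annotated transcript of a gene at another locus, and the coding windows were all shared. For Pgk1 this was 67.0% of all windows and 100% of coding windows, and for Eno1 59.0% and 69.2%. Ldhb had 8.80%, Pkm 6.82%, Ldha 1.48% and Tpi1 0.796%. Hk1, Pfkm and Eno2 had none. For all genes the share was computed over the windows of all their transcripts together. On that measure Pgk1 had 51.7%, Gapdh 20.9%, Eno1 20.4%, Ldhb 6.44%, Pkm 3.09%, Ldha 0.590% and Tpi1 0.422%. Over 18048 genes, 544 (3.01%) shared more than 20% of their windows, 260 (1.44%) more than 50%, and 86.8% none. These 3 members held the lowest level (Gapdh), the next lowest (Eno1) and the fourth highest (Pgk1). Whether multiply mapping reads were dropped, split or counted in full was not given in the sources used here, and their part in these levels was not tested.

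Gapdh had 333 annotated pseudogene copies with at least 80% identity over at least 200 bases, on 21 chromosomes. Of these, 320 were annotated as processed, 12 as transcribed processed and 1 as unprocessed, and 70 had at least 95% identity. Copies with a perfect match to the whole Gapdh coding sequence numbered 3 (Gm7336, Gm10359 and Gm12671), and none of the 3 had a value. Ldha had 29 copies, Pkm 14, Eno1 12, Pgk1 7, Tpi1 7 and Ldhb 1, and none was found for Hk1, Pfkm and Eno2. For Eno1 the gene with the most shared windows was Eno1b, a separate gene annotated as protein-coding, which held 58.6% of all Eno1 windows. For Pgk1 it was Pgk1-rs7, with 67.0% of all Pgk1 windows.

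**Figure D4:**
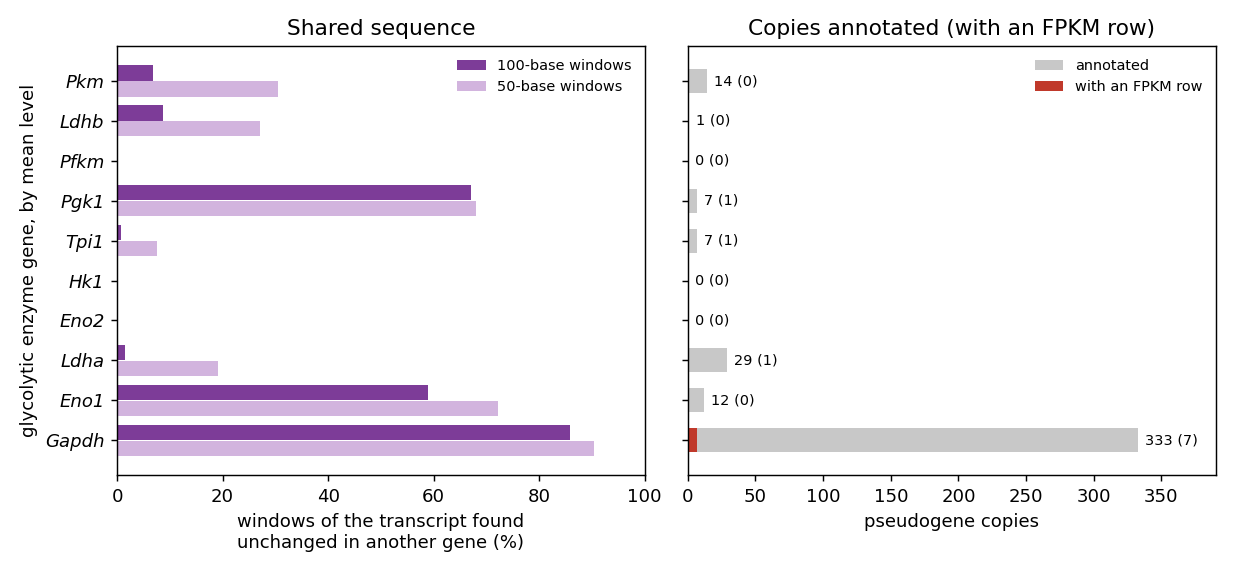
Left, percent of 100-base (dark) and 50-base (light) windows of each main transcript found unchanged in a gene at another locus. Right, annotated pseudogene copies of each gene (grey) and those with an FPKM value (red), with both numbers printed. Gapdh leads both panels with 85.8% and 333 copies, of which 7 had a value.

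Few copies had a value at all. Of the 403 copies 10 were listed. They were 7 transcribed processed copies of Gapdh and 1 processed copy each of Ldha, Pgk1 and Tpi1. Over the whole annotation 1.83% of 9940 processed pseudogenes, 36.5% of 296 transcribed processed ones and 73.2% of 21951 protein-coding genes were listed. The 7 listed Gapdh copies summed to 1.84, 1.61 and 2.31 FPKM in PND and to 1.54, 2.15 and 1.54 FPKM in CON.

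Gm5069, the Gapdh copy with the highest mean, had 0.918, 0.865 and 0.683 FPKM in PND and 0.513, 1.15 and 0.713 FPKM in CON. Next was 3000002C10Rik, with a mean of 0.571 FPKM, and then Gm6498, with 0.369 FPKM. The groups overlapped for each of them. The other 4 (Gm4691, Gm5177, Gm11960 and Gm10364) were listed at 0 in 3 to 5 of the 6 samples. Pgk1-rs7, identical to Pgk1 over 1255 aligned bases, was listed at 0 in 4 samples and reached 0.123 FPKM in PND replicate 3, beside 42.3 FPKM for Pgk1. Ldha-ps2 had 1.71, 0.359 and 2.62 FPKM in PND and 1.26, 0.697 and 2.24 FPKM in CON, and its groups overlapped.

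Only Tpi-rs11, a processed copy with 97.7% identity to Tpi1 over 310 bases, passed the cut-off among the 5 copies high enough to be tested, beside 1.33% of all tested genes. It had 0.365, 0.408 and 2.06 FPKM in PND and 2.15, 2.38 and 3.14 FPKM in CON. The groups did not overlap, as in 7.66% of all tested genes, though PND replicate 3 came close to CON replicate 1. It fell by 1.72 on the log2 scale (SE 0.58, unadjusted p = 0.019, adjusted p in limma 0.9999). Its values corresponded to an estimated 0.999 to 7.02 fragments a sample. The call was lost with a pseudocount of 1 FPKM and when PND replicate 1, PND replicate 2 or CON replicate 3 was left out. Tpi1 itself did not pass. Added to their listed copies by estimated fragments, Gapdh, Ldha, Pgk1 and Tpi1 had log2 fold changes of 0.04 to 0.33, and none passed.

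Of the list of 21 other genes of the pathway, 17 had a value and 15 of these were tested. None passed the cut-off or had an unadjusted p below 0.05. All 15 fold changes were above 0, with a median of 0.17, beside 52.4% and 0.01 for all tested genes. Without CON replicate 1, 8 of the 15 were above 0 and the median was 0.00016, and without PND replicate 3 it was 10 of 15 with a median of 0.10. Without PND replicate 1 or 2 all 15 were, with medians of 0.12 and 0.34. Leaving out CON replicate 2 or 3 gave 14 and 13, with medians of 0.35 and 0.16. Only without CON replicate 2 did 1 of the 15 have an unadjusted p below 0.05. Of the 11 that averaged 1 FPKM or more, CON replicate 1 was the lowest sample for 6. Aldoa, an aldolase that splits fructose bisphosphate, had 54.7, 26.9 and 66.8 FPKM in PND and 25.6, 76.4 and 35.8 FPKM in CON. This was the wide, overlapping pattern of Eno1. Aldoc, the brain aldolase, had 37.0, 30.1 and 46.3 FPKM against 26.7, 41.6 and 31.7. Gpi1, which makes fructose 6-phosphate, had group means of 22.4 ± 5.64 and 20.7 ± 6.23 FPKM (SD, n = 3 each), and Pgam1, the phosphoglycerate mutase, 60.9 ± 6.65 and 54.8 ± 9.36 FPKM (SD, n = 3 each).
The log2 fold changes of the remaining named genes were 0.17 for Pfkl and 0.01 for Pfkp, both phosphofructokinase subunits. Hkdc1 had 0.45, Bpgm 0.08, Pgam2 0.41, Eno1b 0.18 and Ldhal6b 0.30. Hk3 was below the level filter. The germ-cell isoenzymes Gapdhs, Pgk2 and Ldhc, and Pklr, were not analysed here.

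Regulators and neighbouring steps were mixed, with 11 fold changes above 0 and 12 below, a median of -0.06 and none past the cut-off. G6pdx, the entry enzyme of the pentose phosphate pathway, was the only gene of the 23 with an unadjusted p below 0.05, a share near the 3.13% of all tested genes. It had 6.45, 5.74 and 5.91 FPKM in PND and 3.87, 4.96 and 5.12 FPKM in CON. All PND samples were above all CON samples, with a log2 fold change of 0.38 (unadjusted p = 0.048, adjusted p in limma 0.9999). Pdk3 was the other gene of the list whose groups did not overlap, and 2 of 23 is near the 7.66% of all tested genes. Pfkfb3, which makes the activator of phosphofructokinase, had 1.32, 1.40 and 1.30 FPKM in PND and 2.10, 3.60 and 1.37 FPKM in CON (log2 fold change -0.67, unadjusted p = 0.084). The glucose transporter gene Slc2a1 had 5.39, 3.17 and 7.45 FPKM in PND and 0.716, 6.60 and 3.91 FPKM in CON (0.88, unadjusted p = 0.271). The groups overlapped for both. Pdk3, an inhibitor kinase of pyruvate dehydrogenase, had a log2 fold change of 0.17, the lactate transporter gene Slc16a1 -0.22, and Mpc1, of the mitochondrial pyruvate carrier, -0.23.

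Hypoxia raises many glycolytic genes through HIF. ACGTG, a form of its core DNA motif, was searched here, and other forms were not counted. RefSeq gave Ldha more than 1 start. The last 160 bases before the more upstream of these are printed because Ldha is a textbook target and this window held the most matches of the members, whereas its other window held 0. They lie at chr7:46845644-46845803 on the plus strand (RefSeq, GRCm38.p6). Capitals mark ACGTG on either strand, read as ACGTG or CACGT.
Ldha: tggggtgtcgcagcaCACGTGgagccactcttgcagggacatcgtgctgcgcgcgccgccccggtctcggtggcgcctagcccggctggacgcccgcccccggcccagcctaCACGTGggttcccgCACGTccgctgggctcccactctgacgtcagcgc

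This stretch held 5 matches, of which 4 came from 2 copies of CACGTG, which reads the same on both strands and is also the E-box. In windows of 300 bases, from 250 before to 50 after each start, 6 of the 10 members had at least 1 match in some window, or 7 of their 18 windows. Of all genes 21.8% had one, and of all 32851 windows 19.6%. Members can have several windows, and a match is a description of letters, not of binding. Of 16 tested genes of the hypoxia response, 8 fold changes were above 0 and 8 below, with a median of 0.00084 and none past the cut-off. Epas1, which encodes a HIF alpha subunit, had 24.0, 24.3 and 27.7 FPKM in PND and 21.4, 24.2 and 20.53 FPKM in CON (0.20, unadjusted p = 0.124). Car12, a carbonic anhydrase gene, had 2.59, 1.44 and 3.32 FPKM against 2.30, 1.34 and 0.776 (0.74, unadjusted p = 0.129). The groups overlapped for both. Ddit4, a stress-induced inhibitor of mTOR signalling, had a log2 fold change of 0.37, P4ha1, a collagen prolyl hydroxylase, -0.10, Ndrg1 -0.16 and Egln1, a HIF prolyl hydroxylase, -0.13.

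Gapdh and Pgk1 both serve as reference genes, and the spread of their FPKM differed. Among 15 common reference genes, the coefficient of variation over the 6 samples was 11.6% for Pgk1, the fourth lowest, and 34.5% for Gapdh, the twelfth. Sdha (7.65%) and Hprt (8.30%) were the steadiest, and B2m (37.7%) the least steady. None of the 15 passed the cut-off. Gapdh covered a 2.56-fold range over these samples. After GC correction the within-group SD fell from 0.50 to 0.33 log2 units for Gapdh and from 0.19 to 0.15 for Pgk1. The 15 genes also differ in level, GC content and shared sequence, and the part of these in the spread was not tested.

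**Figure D5:**
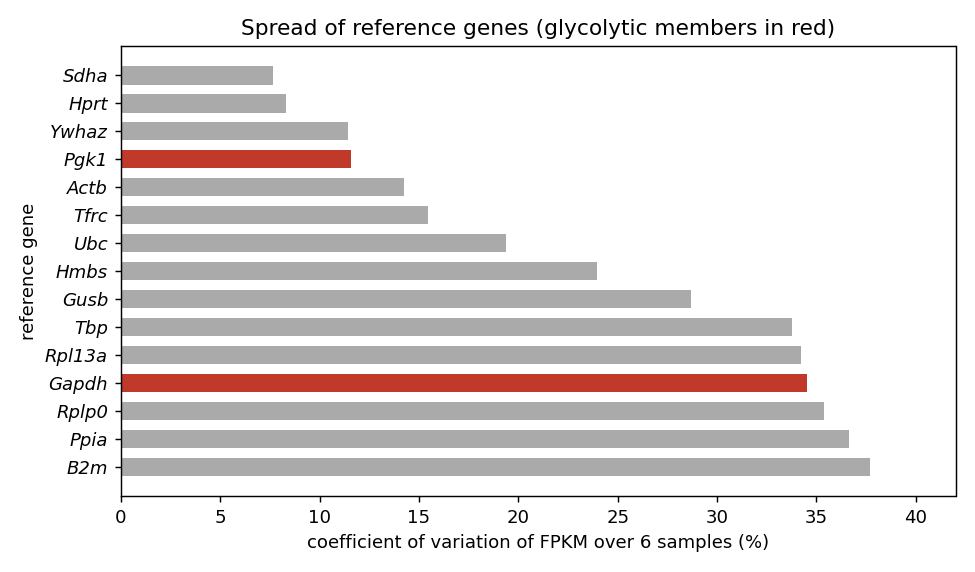
Coefficient of variation of FPKM over the 6 samples, in percent, for 15 common reference genes, with the glycolytic genes in red. Pgk1 (11.6%) is the fourth steadiest and Gapdh (34.5%) the twelfth.

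The genes most like Gapdh over the 6 samples, by Pearson's r of log2 values among 12387 genes, were Tk2, Nipsnap1, Gtf2ird1, Pgbd5 and Elmod3. Those most like the mean of the other 9 members were Ptprs, Plekhm2, Pebp1, Wnt7b and Matk. Their transcripts had a GC content from 50.4% for Nipsnap1 to 60.3% for Ptprs, all above the median of 47.7%. Likeness was the rule by which they were picked, so it is given as a description.

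The tissue label was checked against its markers. The neuronal genes Snap25 (419 to 555 FPKM) and Slc17a7 (23.6 to 73.8 FPKM) were high in every sample. Of the 6 neuronal markers, of which Eno2 is one, none passed the cut-off or had an unadjusted p below 0.05. None of the markers of astrocytes, oligodendrocytes, microglia, endothelium, erythrocytes, choroid plexus, striatum and skeletal muscle passed the cut-off either. At an unadjusted p below 0.05 (adjusted p in limma 0.9999 for each), Gfap was higher in PND (log2 fold change 0.66) and so was Clic6 of the choroid plexus list (0.80), whereas Aqp4 (-0.36) and P2ry12 (-0.76) were lower. The other microglial markers were not all lower, with 0.15 for Cx3cr1, 0.52 for Tmem119, 0.59 for C1qa and -0.13 for Csf1r. Striatal markers were present, with Drd1 at 10.8 to 25.4, Rgs9 at 9.79 to 24.2 and Ppp1r1b at 6.05 to 15.3 FPKM, and CON replicate 3 had the highest Drd1 and Rgs9. The choroid plexus genes Ttr and Folr1 were at most 0.207 FPKM in any sample. The others of that list were higher, with Clic6 at 0.701 to 2.14, Kl at 0.353 to 0.639 and Kcnj13 at 0.321 to 0.817 FPKM. All 3 tested fold changes of that list were above 0. Slc1a2, an astrocyte gene, ran from 68.5 FPKM in CON replicate 1 to 368 FPKM in CON replicate 3. Globin genes summed to 2.76 FPKM in PND replicate 1 and to at most 0.191 in the other samples. The part of cell makeup in the enzyme levels was not tested.

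Between 30.4% and 38.8% of all FPKM of a sample came from 13 mitochondrial genes. The effective depth estimated from the values was 7210000 to 9405550 fragments, which put the 10 enzymes at an estimated 82.8 to 8232 fragments a sample. Gapdh had 82.8 to 266 of these and Pkm 3507 to 8232.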

How the data were processed

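RNA from the prefrontal cortex of 3 PND and 3 CON mice was sequenced after removal of ribosomal RNA. The authors filtered reads with Seqtk, aligned them with HISAT2, counted fragments per gene with StringTie, scaled them with TMM factors and deposited the result as FPKM values. The cut-off used here followed their methods. The submitters' processing notes also list Bowtie 0.12.2 and the builds mm8 and mm9, with no role. Which build the FPKM used, the use of strand and the handling of multiply mapping reads were not given in the sources used here, and the coordinates printed are those of GRCm38.

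Groups came from the treatment labels and replicate numbers from the titles. The members and gene lists were chosen with earlier results of these data known. Of 21006 identifiers 20866 had a symbol. The groups were compared with limma 3.58.1 (R 4.3.3) on log2(FPKM + 0.1), by lmFit followed by eBayes with trend. The 18185 genes averaging at least 0.1 FPKM over the 6 samples entered the fit, and p-values were adjusted over all of them by the Benjamini-Hochberg method. The p-values measure the spread between these samples. The pseudocount understates changes of low genes. On simulated fragments 198 of 200 genes changed 4-fold were recovered, among 17788 genes. The changed genes averaged at least 1 FPKM. The spread between samples was set in advance, and no GC difference between libraries was simulated. The recovery is thus a check of the code and does not measure the sensitivity for the enzymes.

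The genes named were the members, pathway genes averaging at least 1 FPKM, and, of the regulators and the hypoxia genes, the 3 with the smallest p in each direction. The pathway, reference and marker genes were otherwise counted. Hk2 was named for its planned ratio with Hk1. Any other gene named was chosen after its values were seen. Depth was estimated from steps in FPKM times exon length, so fragment numbers are estimates, and only 41.3% to 44.7% of low values lay within 0.05 of a whole number. Copies were pseudogene transcripts of GENCODE M21 (GRCm38) matched by blastn 2.17.0. With no genome sequence at hand, windows were searched in annotated transcripts only, so unannotated copies were missed. GC correction removed a lowess curve (span 0.3) of each sample's deviation on transcript GC content. Alternatives were other pseudocounts, filters, scalings, a replicate block, GC correction, voom on estimated fragments and each sample left out.

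1 gene of the pathway list is not reported here.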

Additional observations from a re-analysis of the deposited data

How the results depend on the processing

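No member passed the cut-off or had an unadjusted p below 0.05 under the 12 alternatives on all samples or with any 1 sample left out. The log2 fold change of Ldhb was -0.0024 with GC correction, alone or with the replicate block, and the signs of the other members were kept under the alternatives on all samples. The number of all genes past the cut-off was 241, and it was 25 with a pseudocount of 1 and 59 when only genes averaging at least 1 FPKM were tested. The number with an adjusted p below 0.05 was 2. It was 0 with a pseudocount of 1, no filter, quantile normalization, median centring, equal totals outside the mitochondrial chromosome or a replicate block with or without GC correction, 1 with voom and 3 with GC correction alone. Of the copies, 1 passed, and 0 with a pseudocount of 1. The causes were not tested. The replicate numbers gave no sign of pairing: deviations of same-numbered samples from their group means correlated at -0.05, -0.45 and 0.03. With 3 samples a group these values cannot settle whether samples were paired. With the replicate block 226 genes passed the cut-off, and the smallest p of the members was 0.362.

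With 1 sample left out, log2 fold changes ran from 0.11 to 0.64 for Gapdh, from -0.057 to 0.23 for Hk1, from -0.16 to 0.30 for Pfkm, from -0.025 to 0.41 for Pkm and from -0.25 to 0.42 for Ldha. They ran from -0.20 to 0.17 for Ldhb, from -0.16 to 0.75 for Eno1, from -0.31 to 0.77 for Eno2, from -0.073 to 0.13 for Pgk1 and from -0.27 to 0.39 for Tpi1. CON replicate 1 turned 8 of the 10 signs. Of all genes 235 to 388 passed the cut-off and 0 to 5 had an adjusted p below 0.05. The hypoxia list, the reference genes and the copies each gave 0 to 1 past the cut-off. The difference of log2 ratios ran from -0.060 to 0.27 for Ldha to Ldhb, from -0.31 to 0.20 for Eno1 to Eno2, from -0.21 to 0.021 for Hk1 to Hk2 and from -0.16 to 0.22 for Pfkm to Pfkp. For Gapdh to the mean of the other 9 it was 0.22 and ran from 0.075, without PND replicate 3, to 0.35. Most of the 10 listed copies stayed under 10 estimated fragments in every sample, whereas each enzyme had at least 82.8. The part of depth was not tested.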
